A study of Mus musculus with 6 samples.

Results

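The genes described here encode the machinery that writes, erases and reads DNA methylation and histone marks or moves nucleosomes along DNA: DNA methyltransferases and TET oxidases, Polycomb subunits, histone methyltransferases and demethylases, deacetylases and ATP-driven remodellers. The list named 39 genes by symbol. A gene was represented by the probe set (the group of array oligonucleotides read out as 1 signal) with the highest mean signal over the 6 arrays, among probe sets that the platform annotation assigns to that symbol alone. Of the 39 genes, 38 had such a probe set, out of 18193 genes represented in this way on the arrays. All 38 also passed the filter on weak signals. Suv39h1, a histone H3 lysine methyltransferase, is not analysed here.

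The RNA came from LSK cells, sorted from lineage-depleted mouse bone marrow as Sca-1-positive and c-Kit-positive cells, a fraction rich in blood stem cells and multipotent progenitors. All mice were F1 animals of a cross between C57BL/6 and FVB/n. The 3 Ercc1-deficient samples carried 1 knockout allele and 1 truncated allele (-/d) of Ercc1, a subunit of a DNA repair endonuclease. The 3 Ercc1-proficient samples were their litter mates, with the genotype +/+ in litters 1 and 2 and +/d in litter 3, so that the last control shares the truncated allele with the deficient mice. Litter 1 was 22 weeks old, and litters 2 and 3 were 20 weeks old. The labels do not state the number of mice in a sample. The comparison asked how transcript levels in LSK cells differ when Ercc1 function is reduced, and it was made within litters.

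DNMT1 copies methylation onto newly made DNA, DNMT3A and DNMT3B place it on unmethylated sites, and the TET enzymes oxidise it. Polycomb complex PRC2 methylates histone H3 to silence genes, and PRC1 binds that mark and ubiquitinates histone H2A. In blood stem cells BMI1 is needed for self-renewal, KMT2A keeps Hox genes active, and mutations of DNMT3A, TET2 and ASXL1 let human stem cell clones expand with age.

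The brightest Ercc1 probe set read 79.9, 34.5 and 44.9 in deficient samples and 128, 244 and 176 in proficient samples, and the deficient array was lower in every litter (log2 difference -1.36, limma adjusted p = 0.0138). The position of its oligonucleotides against the knockout and truncated alleles was not looked up, so this checks the labels only in part. All signals are MAS5 values on a linear scale with a floor of 30, and log2 differences are of log2(signal + 30), which understates changes of weak signals. Of the LSK and early progenitor markers listed, 7 of 9 were measured, and none was at the floor on every array. Their summed signal was between 1936 and 3185 in deficient samples and between 2753 and 3840 in proficient samples. Ly6a, which encodes Sca-1, is not analysed here. Mature granulocyte and monocyte markers, 8 of 9 measured, summed to between 5820 and 88131 in deficient samples and between 497 and 18749 in proficient samples, with the deficient sum higher in every litter and Itgam at the floor on all arrays. T cell markers summed to between 132 and 209 in deficient samples and between 120 and 125 in proficient samples, where a list at the floor would sum to 120. B cell markers (at most 116, floor sum 90) and stromal markers (at most 134, floor sum 120) were near the floor throughout. Megakaryocyte markers summed to between 989 and 2381 in deficient samples and between 379 and 1640 in proficient samples, and erythroid markers to between 610.0 and 1045 in deficient samples and between 527 and 1285 in proficient samples. Spike-in controls averaged 12.8, 12.0 and 11.9 on the log2 scale in deficient samples and 11.6, 11.9 and 11.7 in proficient samples. In these bulk samples, fewer cells of a type and less RNA per cell cannot be told apart.

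Promoters are shown for Suz12 and Ezh2, PRC2 genes with log2 differences of 0.54 and -0.02, and for Tet1, the TET gene with the lowest difference. They are RefSeq windows of build GRCm38.p6, from 250 bases before to 50 bases after the annotated gene start, written 5′ to 3′ on the gene's strand. Capitals mark a match to an E2F motif, the binding letters of factors that switch on genes for DNA replication. The search used TTTCCCGC, TTTGGCGC, TTTCGCGC and TTTGCCGC on both strands, which do not overlap each other in the matches shown.
Suz12, chr11:79992856-79993155, plus strand: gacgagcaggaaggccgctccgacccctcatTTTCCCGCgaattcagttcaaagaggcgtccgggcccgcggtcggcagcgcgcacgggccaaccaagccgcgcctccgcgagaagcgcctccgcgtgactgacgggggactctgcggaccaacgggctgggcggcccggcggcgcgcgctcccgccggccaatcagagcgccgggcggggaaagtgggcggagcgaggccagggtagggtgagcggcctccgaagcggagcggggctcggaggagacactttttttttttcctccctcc
Ezh2, chr6:47594981-47595280, minus strand: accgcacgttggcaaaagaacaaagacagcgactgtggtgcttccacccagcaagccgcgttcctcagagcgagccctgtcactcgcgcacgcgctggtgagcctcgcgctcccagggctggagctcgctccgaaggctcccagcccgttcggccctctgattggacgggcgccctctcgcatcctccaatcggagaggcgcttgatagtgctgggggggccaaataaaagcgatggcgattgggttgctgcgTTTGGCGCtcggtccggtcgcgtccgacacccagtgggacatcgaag
Tet1, chr10:62887275-62887574, minus strand: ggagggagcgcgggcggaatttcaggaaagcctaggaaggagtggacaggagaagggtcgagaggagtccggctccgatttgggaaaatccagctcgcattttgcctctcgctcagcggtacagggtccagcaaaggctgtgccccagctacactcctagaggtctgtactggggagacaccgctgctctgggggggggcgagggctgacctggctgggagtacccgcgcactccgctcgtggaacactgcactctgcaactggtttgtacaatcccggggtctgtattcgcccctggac
Suz12 holds TTTCCCGC from base 32 of its window and Ezh2 holds TTTGGCGC from base 254, while the Tet1 window holds none of these letters. RefSeq windows were found for 34 of the 38 genes, 44 windows in all, and 5 of them held a match, those of Arid1a, Dnmt1, Ezh2, Hells and Suz12. That is 11.4% of the windows, against 2.26% of all 32851 promoter windows. The windows of these genes are also rich in CG, with a median of 29.5 CG pairs, against 7 over all windows. A match is a description of letters and does not show that a factor binds there.

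No gene of the list passed the test between genotypes. With litter as a block, limma called 0 of 38 at an adjusted p under 0.05, against 0.835% of all 22519 probe sets tested and 1.11% of brightest probe sets. The smallest adjusted p was 0.192, for Setdb1. At an unadjusted p under 0.05 there were 6 genes: Setdb1, Tet1, Phc1 and Asxl1 with lower and Sirt6 and Suz12 with higher values in deficient samples. The same cutoff took in 11.5% of all probe sets tested and 12.1% of brightest ones. With 3 litters, an exact permutation test within litters for a single gene cannot give a two-sided p below 0.25. Without litter as a block, limma also called 0 genes of the list, and 0 probe sets in all. Leaving out any 1 litter, which leaves 4 arrays, also left 0 probe sets called over the whole array, those of Ercc1 and the blood markers included. With the number of mice unstated, a p-value here reflects only how far these 6 samples vary, which may be technical.

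The log2 differences leaned slightly to the lower side. Of the 38 genes, 25 had a log2 difference below 0, against 54% of all probe sets tested and 53.2% of brightest probe sets. The median was -0.16, against -0.03 over all probe sets tested and -0.02 when all 10885 tested genes are each taken by their brightest probe set. In litters 1, 2 and 3 the list's median was -0.15, -0.10 and -0.06. Without litter 1 the median was -0.06, and with the mean over all probe sets of each gene it was -0.08. In 15 genes the deficient array was lower in all 3 litters, against 17% of all probe sets tested and 17.9% of brightest probe sets. In 4 genes it was higher in all 3 litters, against 11.3% and 12.6%. The groups did not overlap in 7 genes, against 7.19% of all probe sets tested. Of these, 6 had lower deficient values, against 4.89% of all probe sets tested and 5.23% of brightest ones, and 1 had higher values, against 2.3% and 2.41%. These are counts over genes chosen together, and no test was made over the list. Blood cell markers also differed between these samples. Of the 8 granulocyte markers measured, 5 rose past the test. Of the 7 LSK and early progenitor markers measured, Flt3 and Procr fell, with adjusted p of 0.0349 and 0.0275, and 5 did not pass. Among those, Kit, Cd34 and Meis1 had log2 differences of -0.53, -0.50 and -0.82, with the deficient array lower in every litter. Gata2 went the other way at 0.50, higher in every litter and without overlap (adjusted p = 0.389), and Slamf1 was at 0.36 with overlapping groups. Their part in the values of the chromatin genes was not tested.

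**Figure D1:**
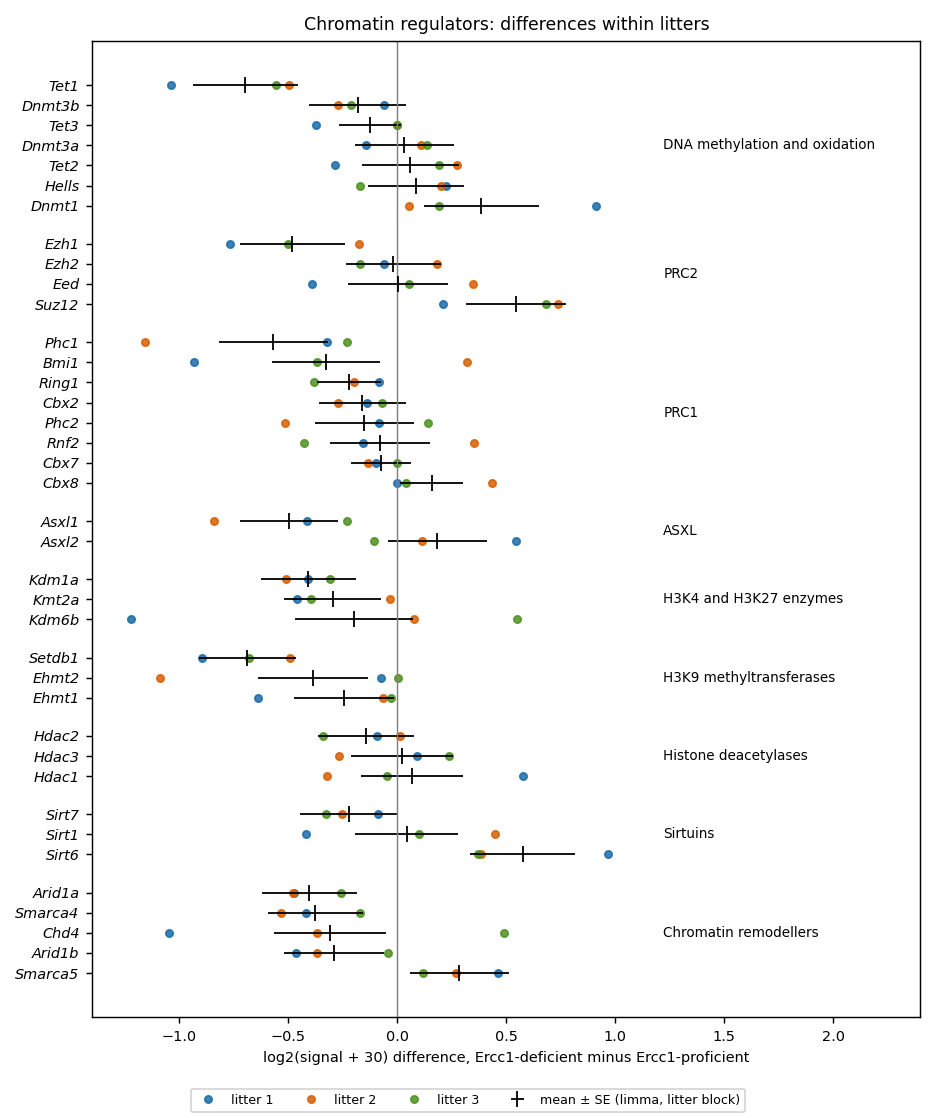
Log2 differences, deficient minus proficient, of the 38 genes grouped by role. Each coloured point is 1 litter, and the black tick with its bar is the mean over litters with the standard error of limma's blocked fit. Tet1, Setdb1, Sirt6, Phc1 and Suz12 lie farthest out, each with all 3 points on 1 side.

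Among the genes of DNA methylation, the maintenance enzyme Dnmt1 read 9205, 5439 and 3921 in deficient samples and 4877, 5245 and 3427 in proficient samples. Its deficient array was higher in every litter, but by a ratio of 1.89 in litter 1 against 1.04 and 1.14 in the others, and the groups overlapped (log2 difference 0.39, standard error 0.26, adjusted p = 0.617). This probe set is of a kind (suffix _x_at) that can also bind related transcripts. A second such probe set gave 0.39, while another without that suffix gave -0.01 (adjusted p = 0.992), with the deficient array higher in 2 litters and lower in 1. Hells, a helicase that helps DNMT enzymes reach packed DNA, had ratios of 1.18, 1.16 and 0.882 in litters 1, 2 and 3.

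The de novo methyltransferases showed no shared direction. Dnmt3a, a brake on stem cell self-renewal, read 321, 146 and 146 in deficient samples and 359, 133 and 131 in proficient samples. The groups overlapped, and the log2 difference of 0.03 had a 95% interval from -0.44 to 0.50. Dnmt3b read 1657, 1308 and 988 in deficient samples and 1730.0, 1586 and 1151 in proficient samples, with the deficient array lower in each litter and a log2 difference of -0.18 (adjusted p = 0.782).

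Tet1 had the lowest log2 difference of the list. It read 122, 65.5 and 62.3 in deficient samples and 283, 105 and 106 in proficient samples. The deficient array was lower in every litter, while the deficient array of litter 1 lay above the proficient arrays of litters 2 and 3, so that the groups overlapped. On the log2 scale the difference came to -0.70 (standard error 0.24, adjusted p = 0.231). Tet2 read 956, 307 and 611 in deficient samples and 1173, 249 and 531 in proficient samples, with overlapping groups and a log2 difference of 0.06. Tet3 was at the floor in all deficient samples and in the proficient samples of litters 2 and 3, and read 47.7 in the proficient sample of litter 1, so the arrays hold almost no measurement of it.

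In PRC2, the log2 differences of the subunits lay between -0.48 and 0.54. None passed the test, and whether the subunits differ from each other was not tested. Suz12, the scaffold subunit that the methyltransferase needs for activity, read 2023, 2010.2 and 1412 in deficient samples and 1746, 1194 and 868 in proficient samples. Each deficient array was above that of its litter mate, and the groups overlapped because the proficient sample of litter 1 exceeded the deficient sample of litter 3. On the log2 scale Suz12 differed by 0.54 (standard error 0.23, adjusted p = 0.355). Ezh2, the main methyltransferase of dividing cells, read 660.2, 496 and 602 in deficient samples and 691, 434 and 683 in proficient samples. Its log2 difference was -0.02, with a 95% interval from -0.47 to 0.44, so that differences within that interval are not excluded. Eed, which reads the methyl mark, had a log2 difference of 0.0034 and an interval from -0.47 to 0.48. Ezh1, the methyltransferase found more in resting cells, read 71.0, 93.4 and 80.01 in deficient samples and 142, 109 and 126 in proficient samples. All deficient values of Ezh1 were below all proficient ones (log2 difference -0.48, adjusted p = 0.453).

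Of the 8 PRC1 genes, 7 had log2 differences below 0 by brightest probe set, against 54% of all probe sets tested. Other tested probe sets gave 0.21 for Bmi1, 0.12 for Rnf2 and -0.33 for Phc2. With each array centred on its median, the brightest probe sets of Rnf2 and Cbx7 were above 0. Phc1, a polyhomeotic subunit that helps Polycomb complexes cluster, read 123, 56.9 and 77.9 in deficient samples and 162, 164 and 96.6 in proficient samples. It was lower in the deficient array of each litter, most in litter 2 at a ratio of 0.347, and the groups overlapped (log2 difference -0.57, standard error 0.25, adjusted p = 0.376). Its relative Phc2 had ratios of 0.934, 0.687 and 1.11 in litters 1, 2 and 3. Bmi1, which stimulates the ubiquitin ligase, read 236, 337 and 213 in deficient samples and 479, 264 and 284 in proficient samples. The deficient value was lower in litters 1 and 3 and higher in litter 2. The ligase genes themselves differed in how well they were measured. Rnf2 had signals between 303 and 546 and overlapping groups, with a log2 difference of -0.08. Ring1 was at the floor in all 3 deficient samples and read 33.5, 38.9 and 48.2 in proficient samples, at least 1.33-fold higher in proficient samples (adjusted p = 0.603). The chromobox readers Cbx2, Cbx7 and Cbx8 had weak signals, with maxima of 78.96, 39.8 and 51.0. Cbx7 was at the floor in 2 deficient samples and 1 proficient sample, and Cbx8 in 1 deficient sample and all 3 proficient samples.

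The ASXL proteins work with the deubiquitinase that removes the PRC1 mark. Asxl1 read 455, 175 and 354 in deficient samples and 617, 338 and 419.5 in proficient samples, with the deficient array lower in each litter and overlapping groups (log2 difference -0.50, standard error 0.23, adjusted p = 0.399). Asxl2 read 2448, 579 and 737 in deficient samples and 1669, 534 and 796 in proficient samples. Its values followed litter rather than genotype, with both samples of litter 1 above all others.

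Among enzymes acting on other histone H3 lysines, Setdb1 had the smallest p of the list. It methylates H3 lysine at silenced genes and retroelements. It read 51.0, 51.2 and 50.1 in deficient samples and 121, 84.1 and 98.2 in proficient samples. The deficient values lay close together and below all proficient values, with a log2 difference of -0.69, a standard error of 0.22 and an adjusted p of 0.192. Ehmt1 and Ehmt2, which work as a pair on the same lysine, had log2 differences of -0.24 and -0.39. For Ehmt2 this came from litter 2, at a ratio of 0.403, against 0.942 in litter 1 and nearly equal signals in litter 3. Kdm1a, a demethylase of the lysine that marks active promoters and needed for blood maturation, read 389.7, 481 and 495 in deficient samples and 528, 698 and 619 in proficient samples. The groups did not overlap, and the ratios were even over the litters at 0.738, 0.690 and 0.799 (log2 difference -0.41, adjusted p = 0.498). Kmt2a, which writes that mark at Hox genes, read 874, 166 and 190.1 in deficient samples and 1216, 171 and 259.6 in proficient samples. Its litter 1 samples stood far above the others in both genotypes, and the groups overlapped (log2 difference -0.30). Kdm6b, which removes the PRC2 mark, had ratios of 0.402, 1.06 and 1.49 in litters 1, 2 and 3, with opposite directions in litters 1 and 3.

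The class I deacetylase genes Hdac1, Hdac2 and Hdac3, catalytic subunits of several repressor complexes, had log2 differences of 0.07, -0.14 and 0.02. In none of these brightest probe sets did the litters share a direction. A second Hdac2 probe set was lower in the deficient array of every litter (log2 difference -0.41, adjusted p = 0.497). A weaker one gave 0.03. Of the sirtuins, deacetylases that depend on NAD, Sirt6 had deficient values that all lay above the proficient ones. By brightest probe sets it was the 1 such gene of the whole list. Sirt6, which acts at sites of DNA damage and telomeres, read 209, 144 and 168 in deficient samples and 92.1, 104 and 123 in proficient samples. The ratio was 2.27 in litter 1 and 1.40 and 1.36 in litters 2 and 3, with a log2 difference of 0.57, a standard error of 0.24 and an adjusted p of 0.349. Sirt1, which protects stem cells under stress, read 209.6, 247 and 179.7 in deficient samples and 291, 173 and 166 in proficient samples, with overlapping groups. Sirt7 was lower in the deficient array of each litter, at ratios of 0.931, 0.816 and 0.777.

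Of the 5 remodeller genes, 3 had lower deficient values in every litter by brightest probe set, against 17% of all probe sets tested. In 1 gene, Smarca5, the deficient values were higher in every litter, against 11.3%. Smarca4, the ATPase BRG1 of SWI/SNF, read 397, 371 and 535 in deficient samples and 542, 551 and 607 in proficient samples. The groups did not overlap (log2 difference -0.38, adjusted p = 0.546). A second Smarca4 probe set gave 0.17, with the deficient array higher in every litter. The DNA-binding SWI/SNF subunit Arid1a read 644, 184 and 502 in deficient samples and 906, 268 and 606 in proficient samples, lower in each litter but with wide spread between litters (log2 difference -0.40, adjusted p = 0.504). Its relative Arid1b read 1649, 1385 and 1707 in deficient samples and 2287, 1797 and 1759.7 in proficient samples, without overlap. Chd4, the NuRD ATPase, had ratios of 0.431, 0.761 and 1.43 in litters 1, 2 and 3 and so no shared direction. Smarca5, the ISWI ATPase needed by early blood progenitors, read 4042, 1136 and 1383 in deficient samples and 2929, 937 and 1271 in proficient samples. It was higher in the deficient array of each litter, by less than the difference between litters (log2 difference 0.28, adjusted p = 0.682).

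**Figure D2:**
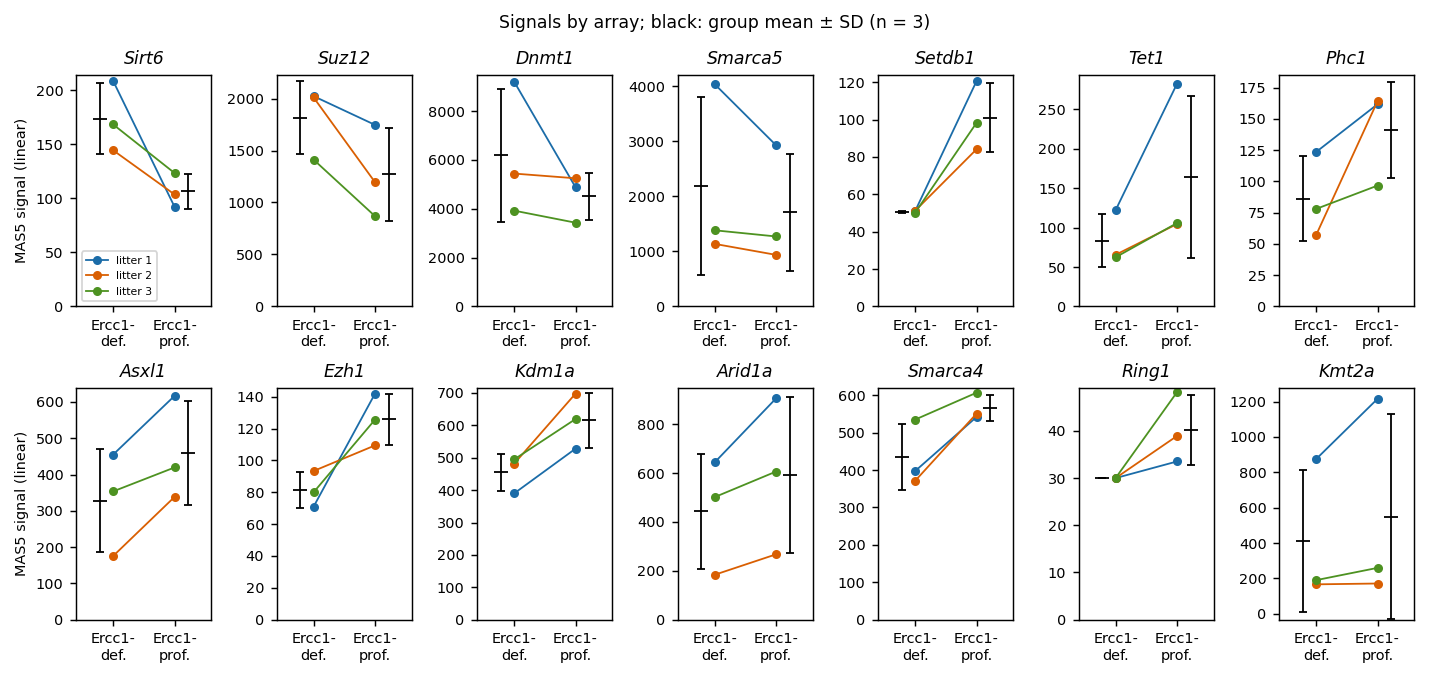
MAS5 signal on a linear axis for the 14 genes whose litter differences share a sign and that had the smallest p in each direction (4 higher, 10 lower). Coloured points joined by a line are litter mates, deficient left and proficient right, and the black marks are group means ± SD (n = 3 each). Setdb1, Ezh1, Kdm1a, Smarca4, Ring1 and Sirt6 show groups that do not overlap, while in Kmt2a, Arid1a and Smarca5 the litters lie farther apart than the genotypes.

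Several genes had more than 1 probe set, and these did not always give the same picture. The 38 genes had 92 probe sets in all, 73 of which passed the filter and 15 of which were at the floor on every array. None of the 73 passed the test (limma, smallest adjusted p = 0.182). Of 20 genes with 2 or more tested probe sets, 8 had all of them on the same side of 0 and 12 did not. Suz12 was the fullest case of the first kind, with 6 of 6 probe sets above 0 and log2 differences between 0.27 and 0.74. The litters did not always share that direction. The probe sets at 0.74 and 0.59 were lower in the deficient array of litter 1, at -0.11 and -0.49, and higher in litters 2 and 3. All 4 tested probe sets of Smarca5 were above 0 as well, between 0.28 and 0.50. In the Smarca5 probe set at 0.50, all deficient values lay above all proficient ones. Both probe sets of Kdm1a had groups without overlap, at log2 differences of -0.41 and -0.49. For Tet1 the second probe set read 105, 61.6 and 58.7 in deficient samples and 248, 164 and 72.7 in proficient samples (log2 difference -0.78, adjusted p = 0.182), and the 2 weaker ones gave -0.34 and 0.15.

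Setdb1, whose brightest probe set had the smallest p among brightest probe sets, was a case of disagreement. Its second probe set read 86.3, 97.5 and 30 in deficient samples and 46.9, 30 and 37.5 in proficient samples, with a log2 difference of 0.51 (adjusted p = 0.365) where the brightest gave -0.69, and another read the floor value on every array. The transcripts that each probe set reads were not determined here. Chd4 gave -0.31, 0.23 and -0.67 with its 3 probe sets, Bmi1 -0.33 and 0.21 with 2, and Smarca4 -0.38 and 0.17 with 2. The 5 probe sets of Dnmt3a spread from -0.41 to 0.34.

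**Figure D3:**
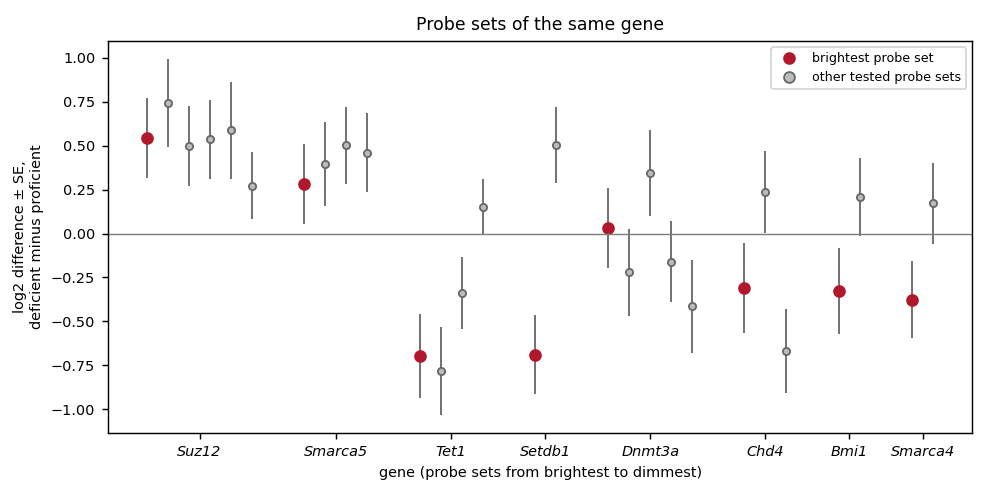
Log2 differences with standard errors for the tested probe sets of 8 genes, brightest in red and ordered by mean signal within a gene. All points of Suz12 and Smarca5 lie above 0, while Setdb1, Chd4, Bmi1, Smarca4, Tet1 and Dnmt3a have points on both sides.

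In most of these genes, as in most genes tested on the arrays, litter 1 differed from the others by more than the genotypes differed. This comparison was chosen after the values were seen. In the same limma fit, the litter term passed in 11 of 38 genes at an adjusted p under 0.05, against 27.1% of all probe sets tested, so that the list was near the background. The difference between litter 1 and the mean of litters 2 and 3 was larger than the genotype difference in 23 of 38 genes, against 69.2% of brightest probe sets. Higher in litter 1, past the test of that contrast, were 8 genes, against a background of 14.1%, and lower were 2, against 13.3%. By brightest probe sets, Kmt2a had the widest gap, with a log2 difference of 2.24 between litter 1 and the others (standard error 0.24, adjusted p = 7.6e-07). Its mean signal was 1045 in litter 1 and 197 in litters 2 and 3. Asxl2, Smarca5, Tet2, Dnmt3a, Arid1a, Tet1 and Asxl1 were the other genes higher in litter 1, with log2 differences of 1.59, 1.53, 1.34, 1.13, 1.05, 0.95 and 0.73. Chd4 and Phc2 were lower in litter 1, with log2 differences of -1.32 and -1.22. Other tested probe sets of several of these genes did not share these gaps. A second Kmt2a probe set went the other way, at -0.66 (adjusted p = 0.0476). Second ones gave -0.0004 for Asxl2, 0.01 for Tet2 and -0.18 for Asxl1. The others of Smarca5 gave 0.22, -0.26 and -0.45. Those of Dnmt3a gave 1.09, 0.74, -0.25 and -0.35, and those of Chd4 0.30 and -0.29. Those of Tet1 gave 0.78, 0.46 and 0.49, and that of Phc2 -0.91, in the direction of the brightest.

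Litter 1 was also the oldest litter, and it differed in other ways. Its samples had Xist signals of 114 (deficient) and 166 (proficient), against 5087 to 14652 in litters 2 and 3. The Y-linked genes went the other way. In the deficient and proficient samples of litter 1, Eif2s3y read 452 and 828, Kdm5d 239 and 201, and Uty 124 and 82.7. In litters 2 and 3, Eif2s3y read 30 to 169 and Kdm5d 30 to 65.8, and Uty was at the floor. Its Gapdh 3′ to 5′ signal difference, a measure of how far amplification and RNA quality shorten what is read, was 4.71 on the log2 scale in the deficient and 3.64 in the proficient sample, against 2.30 to 2.99 in the others. The same measure for Actb did not set litter 1 apart, at 4.97, 4.27 and 3.30 in the deficient and 4.05, 4.43 and 3.70 in the proficient samples of litters 1, 2 and 3. Age, litter, sex as far as these sex-linked genes track it, and the Gapdh measure cannot be told apart in these samples. Whether the genotype difference itself differed between litter 1 and the younger litters was tested as an interaction. It passed for 0 of 38 genes and for 0% of all probe sets tested (limma, smallest adjusted p in the list 0.666). At an unadjusted p under 0.05 it took in 2 of the 38, Kdm6b and Tet3, and 1592 of 22519 probe sets. This fit left 1 residual degree of freedom, so the lack of calls does not show that the genotype difference was alike over litters.

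**Figure D4:**
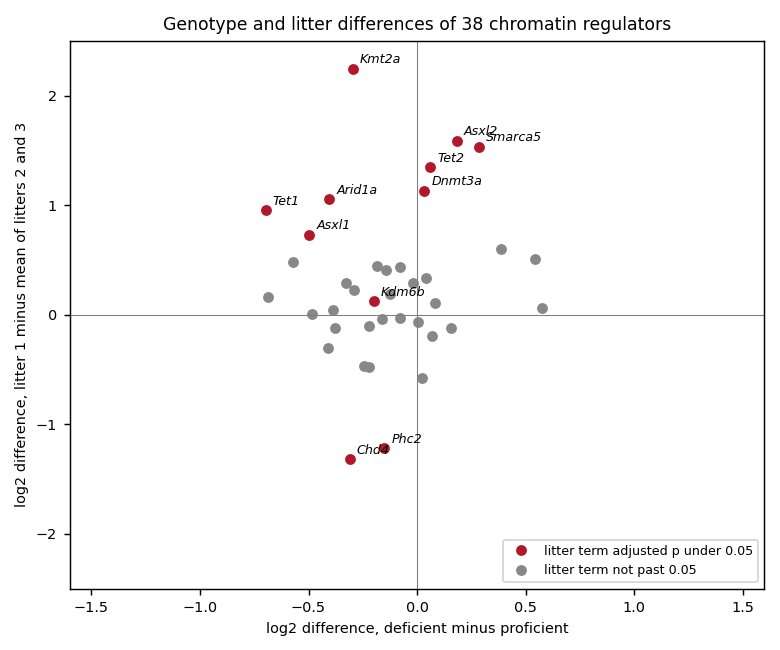
Each point is 1 of the 38 genes, with its genotype difference on the x axis and the difference between litter 1 and the mean of litters 2 and 3 on the y axis, both in log2 units. The 11 genes in red passed the litter term, and all but Kdm6b among them lie farther from 0 on the y axis than on the x axis.

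Other chromatin genes were taken from a longer list of 154, of which 146 had a probe set of their own and 134 passed the filter. With litter as a block, 0 rose and 1 fell at an adjusted p under 0.05, against 0.315% and 0.52% of all probe sets tested. At an unadjusted p under 0.05 there were 6 of 134 higher and 12 lower, near the 4.12% and 7.33% of all probe sets tested. Their median log2 difference was -0.09, with 82 of 134 below 0, against 54% of all probe sets tested. The gene that fell was Prdm16, a methyltransferase-family regulator of stem cell maintenance, at 252, 151 and 125 in deficient samples and 685, 472 and 274 in proficient samples. Its groups did not overlap (log2 difference -1.26, standard error 0.23, adjusted p = 0.00598), but the mean over all its probe sets gave -0.28 (adjusted p = 0.651). Without litter 1, 2 or 3 its log2 difference was -1.22, -1.16 or -1.41, close to that of all litters, with an adjusted p of 0.718, 0.687 or 0.314. Without litter as a block the log2 difference was the same and the adjusted p was 0.9998.

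Near that threshold among lower genes was Hdac11, at the floor in all deficient samples and 76.0, 115 and 44.7 in proficient samples, at least 2.43-fold higher in proficient samples (adjusted p = 0.0644). With each array centred on its median, Hdac11 passed with lower values (adjusted p = 0.0481) and Baz1a and Idh1 passed with higher values (0.0295 and 0.0306). The GlcNAc transferase gene Ogt, whose product is a partner of the ASXL deubiquitinase, had ratios of 0.433, 0.513 and 0.753 in litters 1, 2 and 3 (adjusted p = 0.108). The PRC1 reader Cbx6 read 307, 298 and 515 in deficient samples and 804, 519 and 697 in proficient samples, without overlap (adjusted p = 0.114). Among higher genes, the ISWI partner Baz1a read 1021, 868 and 966 in deficient samples and 700.2, 434 and 493 in proficient samples, also without overlap (log2 difference 0.80, adjusted p = 0.104). Idh1, which makes the 2-oxoglutarate that TET and many demethylases consume, had ratios of 1.20, 2.34 and 2.12 (adjusted p = 0.12). Kmt2e and the PRC1 partner Yaf2 had log2 differences of 0.79 and 0.73, with adjusted p of 0.146 and 0.204.

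By role the counts were small, and no test was made over them. Of the further PRC2 partners, 2 of 7 tested had log2 differences below 0, against 54% of all probe sets tested, with a median of 0.21. Of the deacetylases and their partners, 11 of 13 were below 0, with a median of -0.20. Further SWI/SNF subunits had 8 of 14 below 0 and a median of -0.07, and histone demethylases had 9 of 13 and a median of -0.16. Except for Prdm16, in the list of H3K9 methylation and HP1 genes, no gene of any role passed.

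Genes that Polycomb and DNMT3A are documented to restrain or KMT2A to sustain in blood cells gave these values. Cdkn2a and Cdkn2b, cell cycle inhibitors silenced by Polycomb, were at the floor on all 6 arrays. Hoxa9, a stem cell homeobox gene that depends on KMT2A, read 1076, 874 and 615 in deficient samples and 2039, 1251 and 1572 in proficient samples, without overlap (log2 difference -0.91, adjusted p = 0.0725). Id2, an inhibitor of lineage transcription factors, had a similar p with the other direction. It read 1144, 1483 and 3711 in deficient samples and 609, 688 and 2457 in proficient samples, higher in the deficient array of each litter with overlapping groups (log2 difference 0.85, adjusted p = 0.0906). Hoxa9 and Id2 were named after their values were seen. Of the 9 genes of that list that were tested, 0 passed in limma. An unadjusted p under 0.05 was found for 4, against 11.5% of all probe sets tested. Log2 differences below 0 were found for 6, against 54% of all probe sets tested. Levels of Dnmt1, Ezh2, Suz12 and Hells are known to follow cell division. The listed proliferation genes, 14 of 15 measured, had a median log2 difference of 0.17, and 0 passed limma's test. Of the 14, 12 were above 0, against 10357 of all 22519 probe sets tested. At an unadjusted p under 0.05 there were 2, against 11.5% of all probe sets tested. Mki67 and Top2a, which mark dividing cells, had log2 differences of 0.02 and 0.01. The farthest from 0 in that list, named after their values were seen, were Birc5, a mitotic regulator, at 0.79 (adjusted p = 0.138) and Rrm2, which makes DNA precursors, at 0.65 (adjusted p = 0.352). Both were higher in the deficient array of every litter, without overlap. Mcm4, of the replicative helicase, was also higher in every litter, at 0.45, with overlapping groups. The probe sets of Rrm2 and Mcm4 are of the _x_at kind that can also bind related transcripts. Their ratios were highest in litter 1, at 2.22 and 2.01. The part of cell division in the values above was not tested.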

How the data were processed

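Per the labels' protocols, RNA of sorted LSK cells went through 2 rounds of linear amplification and onto Affymetrix Mouse Genome 430 2.0 arrays. The deposited values are MAS5 signal intensity on a linear scale, per the submitters' processing notes; those notes name neither a MAS5 version nor the step that set the floor of 30. Scaling was kept. After 64 control probe sets were left out, 45037 remained, and the 22519 with a mean signal at or above the median (32.6) were tested with limma 3.58.1 in R 4.3.3 (lmFit, eBayes with a variance trend) on log2(signal + 30), with litter as a block and Benjamini-Hochberg adjustment over all of them at 0.05. The fit was tested on simulated data. The labels state that same-numbered samples are litter mates, and their deviations from the group means correlated at 0.77, 0.67 and 0.46. The genes and lists were chosen with earlier results of these data known. Genes given in every array are those past the test and, filled up to 10 in each direction, those with the smallest p and the same sign in all litters; up to 4 in each direction of the further chromatin genes. A gene at the floor in a whole group has a bound: the mean of its log2 signals in the other group over the floor. Platform annotation gave 34945 probe sets 1 symbol, 932 several and 9160 none. Alternatives were another scaling, pseudocount, filter, variance model and probe set rule, no block, and each litter left out.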

Additional observations from a re-analysis of the deposited data

How the results depend on the processing

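Of the 38 genes, 0 were called in either direction under all 12 alternatives, 1 of them (a filter on mean log2 signal) chosen after seeing the data; the stricter filter tested 32 of them. Over all probe sets, 71 higher and 117 lower calls became 193 higher and 139 lower with median centring, 0 and 0 without the replicate block, without a filter or without any 1 litter (range 0 to 0), and lower calls became 75 with quantile normalization and 65 without a variance trend. Calls among the further chromatin genes (0 higher, 1 lower) became 3 higher and 2 lower with median centring and 2 lower with no pseudocount, and 0 lower without the replicate block, with no filter, with the mean over probe sets and without any 1 litter (0 to 0). The median of the 38 genes was -0.0661 with median centring, where that of all probe sets was 0.0619, -0.0822 with the mean over probe sets, and between -0.18 and -0.0566 without 1 litter, with -0.0566 without litter 1. Some small differences changed sign. With the mean over probe sets Dnmt3a was -0.0839, Tet2 -0.0712 and Rnf2 0.0090; with median centring Ezh2 was 0.0727, Rnf2 0.0113 and Cbx7 0.0134; with quantile normalization Eed was -0.0525. Without 1 litter the range was -0.0200 to 0.12 for Dnmt3a, -0.0474 to 0.23 for Tet2, -0.12 to 0.0601 for Ezh2, -0.17 to 0.20 for Eed, -0.29 to 0.0956 for Rnf2, -0.30 to 0.0292 for Phc2, -0.57 to 0.31 for Kdm6b, -0.19 to 0.26 for Hdac1, -0.0875 to 0.16 for Hdac3, -0.16 to 0.27 for Sirt1 and -0.71 to 0.0586 for Chd4. The cause was not tested. Over 46 genes, 512 of 545 values under alternatives kept direction and side of the threshold. Prdm16 had an adjusted p of 0.942 without a filter. Signals near the floor limit what Ring1, Tet3, Cbx7 and Cbx8 can show, and 3 litters limit the precision of all values.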
